A study of Homo sapiens with 10 samples.

Results

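The hypoxia response and glycolysis genes were followed in clonal lines of EA.hy926 cells, an established human hybrid line made from umbilical vein endothelial cells and A549 lung carcinoma cells. The list holds 44 genes, named by symbol, out of 27945 symbols in the deposited table, and 40 of them reached the filter for testing. EGLN3, CA9, ALDOC and AK4 did not. A gene was tested when it had a depth-scaled read count (FPKM times length in kb) of at least 1 in at least 2 libraries, which left 13333 genes. RNA-Seq had been done on total RNA depleted of ribosomal RNA, from 3 clones homozygous for a CRISPR/Cas9 deletion at the promoter of the long noncoding RNA VEGFA-LNC, 3 clones with the same kind of deletion at VEGFC-LNC, and 2 control libraries for each of the 2 sets. Controls had been given the guide RNAs but no Cas9 and had been taken through clonal selection as well, and every group was kept in high-glucose medium with serum. No low-oxygen treatment is named for any library, so the values are taken as basal levels and not as a response to hypoxia. Each clone is a line of its own in a tumor-endothelial hybrid, and a difference between a clone and the controls can hold clonal variation as well as the deletion.

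Cells sense oxygen through prolyl hydroxylases, encoded by EGLN1, EGLN2 and EGLN3, which mark the alpha subunits of hypoxia-inducible factor (HIF) for the VHL ubiquitin ligase. When oxygen is short the alpha subunits, HIF1A and EPAS1 (HIF-2 alpha), escape destruction, pair with ARNT and bind short DNA elements near their target genes. The targets raise glucose uptake and glycolysis, buffer pH, modify collagen, and send out secreted factors such as VEGFA and adrenomedullin. Since HIF alpha is controlled mainly as a protein, the level of HIF1A mRNA does not measure HIF activity. Endothelial cells are known to draw most of their ATP from glycolysis, with PFKFB3 as a strong stimulator of its flux.

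The libraries held between 6743947 and 24197589 reads. The libraries of a group did not vary alike. On the log2 scale the median SD of a tested gene was 0.287 among the VEGFA-LNC deletion clones and 0.249 among the VEGFC-LNC deletion clones, but 0.0650 and 0.0639 between the 2 controls of each set. Between the 2 controls the read counts still differed by more than sampling noise, with a mean chi-square per gene of 3.77 and 1.54 where 1 is sampling noise. The medians were 0.897 and 0.618, and the value of 1 for sampling noise applies to means and not to medians. The 2 controls of a set were counted as 2 libraries, though such an excess does not show that they are independent replicates. The labels do not say whether the controls of a set were separate clones or cultures, so the p-values measure the spread between these libraries, which may in part be technical. The first VEGFA-LNC deletion clone stood apart from the other two. Its read counts differed from theirs with a median chi-square per gene of 14.4 and 11.0 (means 138 and 90.7). Between the second and the third the median was 3.60 (mean 25.9). In the VEGFC-LNC set the first deletion clone also differed more from the others, with medians of 7.52 and 4.37, against 2.98 between the second and the third. Since the first VEGFA-LNC deletion clone differed most, the counts of called genes below are also given without it. The endothelial label was borne out by CDH5 at 56.6 to 312 FPKM and PECAM1 at 13.9 to 159 FPKM, whereas VWF (0.650 to 8.78 FPKM) and KDR (0.0360 to 1.39 FPKM) were low. KRT8 and KRT18, which the A549 parent expresses, were at 95.2 to 436 FPKM, and the epithelial markers KRT19, EPCAM and CDH1 were at 0.505 FPKM or less in all 10 libraries.

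The level of a gene was taken as FPKM, fragments normalised to transcript length and to library depth, which is scaled to length so that levels may be compared between genes. ENO1, which encodes enolase, was the most abundant in every group, at 466 to 962 FPKM over the 10 libraries. LDHA, lactate dehydrogenase A, followed at 149 to 356 FPKM and MIF, a secreted cytokine, at 71.0 to 214 FPKM. PGK1 ranged from 73.7 to 151 FPKM. ENO1, LDHA, PGK1 and MIF have near-identical processed copies elsewhere in the genome, and how the deposited table shared reads among such copies is not given in the sources used here, so their levels are uncertain. At the low end of the tested genes stood ZNF395 (0.444 to 3.68 FPKM), PDK1 (0.672 to 1.91 FPKM) and TMEM45A (0.477 to 6.39 FPKM). CA9, the carbonic anhydrase that is induced strongly by HIF-1, had 0 reads in each of the 10 libraries, and a count of 0 allows up to 0.0805 FPKM in the deepest of them and 0.289 FPKM in the shallowest (3 counts, counting error only). EGLN3, the oxygen sensor that is itself a HIF target, had 1 read in the second VEGFA-LNC control and 0 reads in the others. The brain aldolase ALDOC stayed between 0 and 0.353 FPKM and the mitochondrial adenylate kinase AK4 between 0.0220 and 0.138 FPKM.

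**Figure D1:**
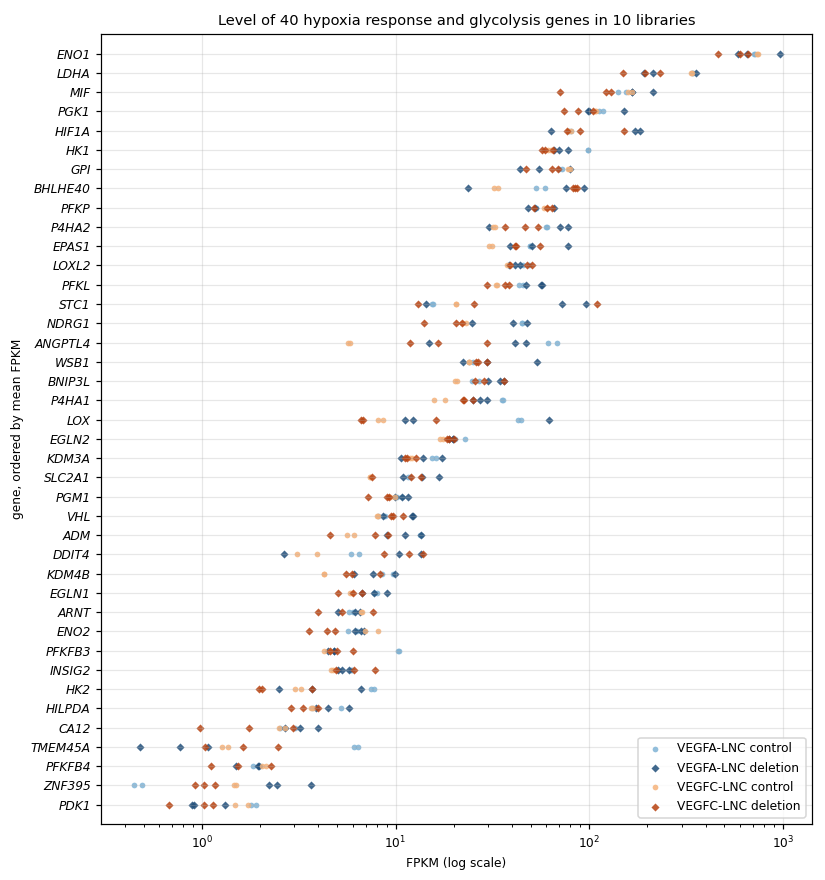
FPKM (log scale) of the 40 tested genes in 10 libraries, ordered by mean level; circles are controls and diamonds deletion clones. ENO1 is at the top with 466 to 962 FPKM, and ANGPTL4, TMEM45A, LOX, STC1 and ZNF395 spread over the widest ranges.

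The range over libraries differed from gene to gene. The highest library was 13.4 times the lowest for TMEM45A, 12.0 times for ANGPTL4, 9.35 times for LOX, 8.40 times for STC1 and 8.28 times for ZNF395. It was 1.33 times for EGLN2, 1.34 times for LOXL2 and 1.37 times for PFKP. The 5 wide-ranging genes encode a membrane protein, 3 secreted proteins and a transcription factor, and the 3 steadiest an oxygen sensor, a lysyl oxidase and the platelet-type phosphofructokinase.

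HIF binds a core written ACGTG or GCGTG, and the 300 bases before the listed start of each transcript were searched for it on both strands of the hg19 build. A core was found in 31 of the 44 windows (70.5%), against 7816 of the 13333 windows of the tested genes (58.6%). ACGTG alone was found in 20 of the 44 (45.5%) and in 24.7% of all tested genes. The list was assembled from known targets of HIF, so these shares describe it and test nothing. Palindromic CACGTG counts on both strands and is also the letter sequence that other factors such as MYC and BHLHE40 bind. The following stretches show the core, in capitals, in genes that the results below turn on, and in CA9, which had the core beside its start and no reads. Each reads 5′ to 3′ along the gene.
LDHA (chr11:18415906-18415935, plus strand): cttacttagactcccagcgCACGTGgagca
PGK1 (chrX:77359523-77359567, plus strand): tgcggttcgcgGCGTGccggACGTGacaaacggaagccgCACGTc
CA9 (chr9:35673887-35673914, plus strand): cccagctctcgtttccaatgCACGTaca
ANGPTL4 (chr19:8428785-8428829, plus strand): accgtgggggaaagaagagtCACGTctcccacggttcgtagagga
BHLHE40 (chr3:5020858-5020902, plus strand): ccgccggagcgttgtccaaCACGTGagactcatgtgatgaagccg
DDIT4 (chr10:74033537-74033581, plus strand): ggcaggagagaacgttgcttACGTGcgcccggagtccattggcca
KDM4B (chr19:4968864-4968908, plus strand): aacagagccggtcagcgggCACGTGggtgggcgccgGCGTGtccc
P4HA1 (chr10:74856997-74857032, minus strand): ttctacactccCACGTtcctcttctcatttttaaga
PFKFB3 (chr10:6186696-6186740, plus strand): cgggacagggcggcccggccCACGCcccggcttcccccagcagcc
In LDHA the palindrome begins 11 bases before the listed start, and PGK1 has 5 cores within 300 bases. PFKFB3 has GCGTG and no ACGTG. No match was found in the windows of 13 genes, among them TMEM45A, ZNF395, STC1, HK1, ENO2, SLC2A1 and LOX. A match in these letters is a description of the sequence and does not show that HIF was bound.

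Deletion of VEGFA-LNC was followed by a fall of PFKFB3 and TMEM45A and a rise of ZNF395, and no other gene of the list passed the test. Differences were taken on the log2(FPKM + 0.1) scale in limma, a scale that understates the change of low genes, and a gene was called differentially expressed when its false-discovery rate (FDR, Benjamini-Hochberg over the 13333 genes) was under 0.05 and its level changed, up or down, by 1.5-fold or more (FC, fold change). In such bulk RNA, fewer cells with a transcript and less of it per cell cannot be told apart. The 3 called genes are 7.5% of the 40, where 2.75% of all tested genes were called (98 higher and 269 lower). In 14 of the 40 genes (35%) the 3 clones lay entirely on the same side of both controls, 4 above and 10 below, which is near the 39% of all tested genes. Over the list 17 genes were higher and 23 lower, the median log2 FC being −0.02, and all tested genes had a median of −0.06. This direction depended on scaling, since the list's median was 0.04, with 21 genes higher, when libraries were scaled by the median of ratios. Without the first deletion clone it was −0.06, again with 17 higher and 23 lower. The number of called genes depended on the fit. Against all 4 controls it was 0, and the list's median log2 FC was 0.17, with 26 genes higher. It was also 0 in a fit of the 5 libraries alone, which kept the median at −0.02 and changed the estimate of spread. Averaging each control pair to 1 sample kept the median as well. With a library left out, the log2 FC ran from −1.14 to −1.09 for PFKFB3 and from −3.16 to −2.65 for TMEM45A. For ZNF395 it ran from 2.10 to 2.45. Without the first deletion clone 10 genes of the list were called, namely PFKFB3, TMEM45A, ZNF395, HIF1A, BHLHE40, DDIT4, HK2, LDHA, LOX and PDK1. Calls among all tested genes rose likewise, from 367 to 1732.

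Deletion of VEGFC-LNC left no gene of the list past the test, while BHLHE40, DDIT4 and ANGPTL4 stood higher and LDHA and ENO2 lower in all 3 clones than in both controls. limma called 0 of the 40 genes and 0.473% of all tested genes (20 higher and 43 lower, or 46.3% of calls higher in place of 31.7% with the median of ratios). At an unadjusted p under 0.05 there were 10 of the 40, and 2508 of all 13333 tested genes. The lowest FDR of the list was 0.0778, that of ENO2. limma voom on the recovered reads also called 0 of the list. The clones did not overlap the controls in 24 of the 40 genes (60%), 14 above and 10 below, where 47.8% of all tested genes did not overlap. The median log2 FC of the list was 0.08, with 21 genes higher and 19 lower, against −0.09 over all tested genes. In a fit of the 5 libraries of this comparison, 1 gene of the list was called, BHLHE40, and 26 of all tested genes. The first VEGFA-LNC deletion clone touches this comparison through the shared estimate of spread alone. With it left out 5 genes of the list were called, namely ANGPTL4, BHLHE40, DDIT4, ENO2 and LDHA. Calls among all tested genes then rose from 63 to 1157.

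**Figure D2:**
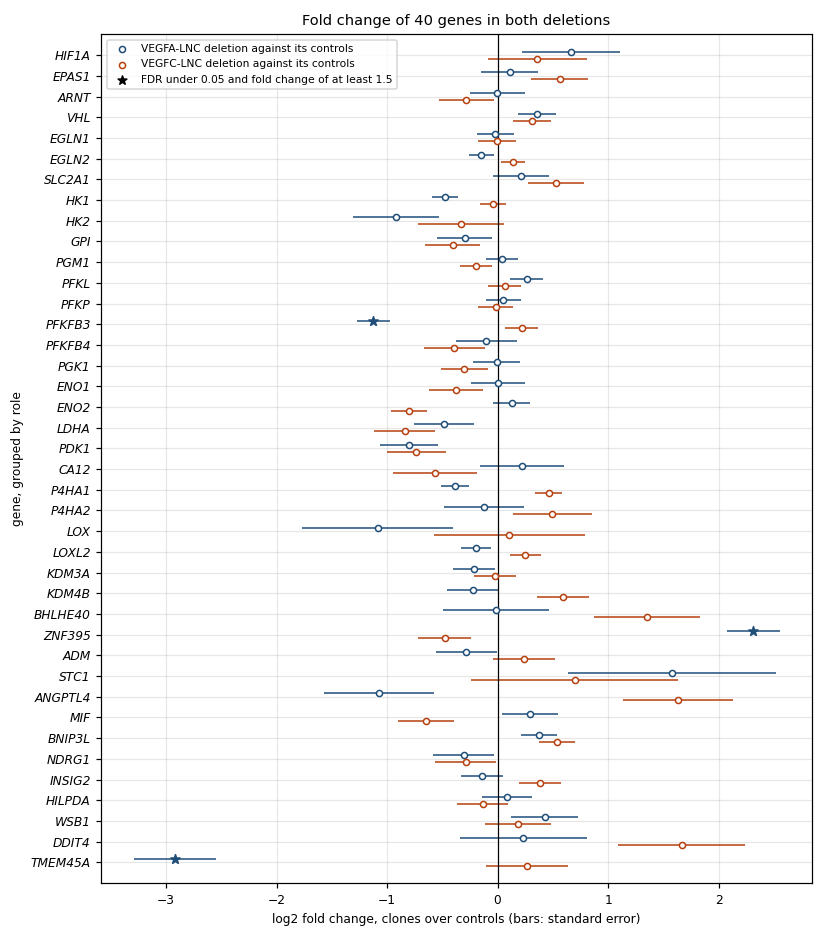
log2 FC (clones over their controls) of the 40 tested genes, grouped by role, for the VEGFA-LNC deletion (blue) and the VEGFC-LNC deletion (red), with bars of 1 standard error; stars mark genes past the test. The stars are PFKFB3 (−1.12), TMEM45A (−2.92) and ZNF395 (2.31), all of them in the VEGFA-LNC deletion.

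PFKFB3 encodes the kinase and phosphatase that makes fructose 2,6-bisphosphate, the allosteric activator of phosphofructokinase. It is listed as NM_001145443 on chromosome 10 from 6186841 to 6277507. The VEGFA-LNC controls were at 10.2 and 10.5 FPKM and the 3 deletion clones at 4.79, 4.46 and 4.84 FPKM. In the VEGFC-LNC set the controls were at 4.61 and 4.27 FPKM and the clones at 6.02, 4.60 and 5.0 FPKM. The VEGFA-LNC controls were thus the 2 high libraries of the 10, and the VEGFA-LNC deletion clones lay at the level of the other set. From controls to clones PFKFB3 fell by 1.12 on the log2 scale (SE 0.15, FDR 0.0112), 2.18-fold. Set against all 4 controls together the log2 FC was −0.52 (FDR 0.50). All 7 transcripts listed for PFKFB3 gave the same difference, from −1.12 to −1.10.

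TMEM45A encodes a membrane protein known to be induced by hypoxia. It is listed as NM_018004 on chromosome 3 from 100211463 to 100296296. Its level was 6.13 and 6.39 FPKM in the VEGFA-LNC controls and 0.772, 1.07 and 0.477 FPKM in the deletion clones. The VEGFC-LNC controls had 1.28 and 1.37 FPKM and the VEGFC-LNC deletion clones 1.62, 1.04 and 2.46 FPKM. Again the VEGFA-LNC controls were the only libraries above 3 FPKM, and the group of VEGFA-LNC deletion clones overlapped the VEGFC-LNC clones. The fall in the VEGFA-LNC deletion clones was 2.92 on the log2 scale (SE 0.37, FDR 0.00948), 7.58-fold, and against all 4 controls the log2 FC was −1.84 (FDR 0.247). These values rest on as few as 13 reads in the library with the fewest.

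ZNF395, a zinc finger transcription factor known to be induced by hypoxia, is listed as NM_018660 on chromosome 8 from 28203102 to 28243977. It moved the other way. The VEGFA-LNC controls were at 0.444 and 0.490 FPKM and the deletion clones at 3.68, 2.43 and 2.23 FPKM. In between stood the VEGFC-LNC controls, at 1.5 and 1.47 FPKM, and their deletion clones at 0.922, 1.17 and 1.02 FPKM. All 3 VEGFA-LNC deletion clones lay above every other library, and both VEGFA-LNC controls below every other library. ZNF395 rose by a log2 FC of 2.31 (SE 0.24, FDR 0.00377), 4.97-fold, and by 1.57 with all 4 controls (FDR 0.171). Of the 36 tested genes within 5 Mb, 20 were higher and 16 lower upon VEGFA-LNC deletion (median log2 FC 0.10).

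**Figure D3:**
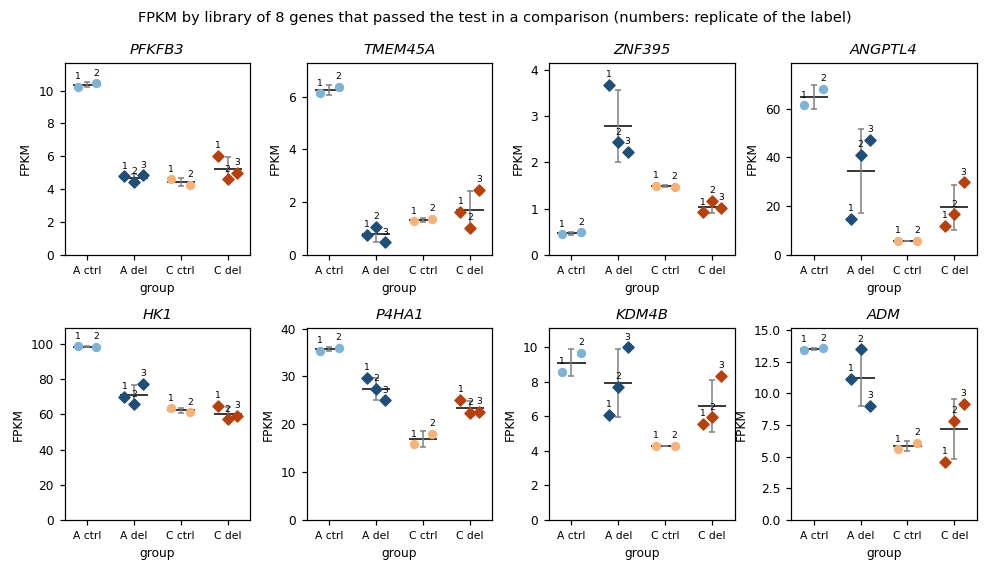
FPKM by library of 8 genes past the test in at least 1 comparison, with VEGFA-LNC groups (A) in blue and VEGFC-LNC groups (C) in orange and red (ctrl, controls, and del, deletion clones); horizontal lines are means and bars 1 SD. For PFKFB3 and TMEM45A the 2 VEGFA-LNC controls stand above the other 8 libraries, and for ZNF395 they stand below them.

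Among the HIF subunits and oxygen sensors none of the 6 tested genes was called in either deletion. HIF1A, listed as NM_001530 on chromosome 14 from 62162119 to 62214977, was at 78.9 and 80.2 FPKM in the VEGFA-LNC controls. The VEGFA-LNC deletion clones were split, with 63.6 FPKM in the first and far higher levels, 183 and 173 FPKM, in the others. The VEGFC-LNC controls were at 80.1 and 78.0 FPKM and the deletion clones at 77.0, 89.8 and 151 FPKM. The 4 controls of both sets were therefore nearly level, and among the 6 clones 3 lay between 63.6 and 89.8 FPKM and the other 3 between 151 and 183 FPKM. The log2 FC was 0.67 (SE 0.45, FDR 0.455) upon VEGFA-LNC deletion and 0.36 (SE 0.45, FDR 0.671) upon VEGFC-LNC deletion. Without the first VEGFA-LNC deletion clone the former was 1.16 (FDR 0.0284).

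EPAS1, the alpha subunit known for its high level in endothelium, was at 49.7 and 49.7 FPKM in the VEGFA-LNC controls and at 39.0, 77.4 and 50.8 FPKM in the deletion clones. In the VEGFC-LNC set it was at 31.4 and 30.5 FPKM in the controls and at 41.5, 41.8 and 55.4 FPKM in the clones, which all lay above the controls (log2 FC 0.56, SE 0.26, FDR 0.28). ARNT, the common beta subunit, was at 6.06 and 5.77 FPKM in the VEGFA-LNC controls against 5.03, 6.18 and 6.59 FPKM in the clones, and at 6.61 and 6.67 FPKM against 3.96, 5.32 and 7.62 FPKM in the other set. The ARNT clones overlapped their controls in both sets. EPAS1 and HIF1A were both lowest of the VEGFA-LNC set in the first deletion clone.

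VHL mRNA was at 8.14 and 8.86 FPKM in the VEGFA-LNC controls and 8.63, 12.2 and 12.3 FPKM in the clones. It was at 8.0 and 8.13 FPKM in the VEGFC-LNC controls and 9.52, 11.0 and 9.70 FPKM in the clones, all above the controls (log2 FC 0.31, SE 0.17, FDR 0.346). EGLN1, the main oxygen sensor, was at 7.78 and 8.02 FPKM against 9.03, 7.77 and 6.74 FPKM in the VEGFA-LNC set and at 5.97 and 5.85 FPKM against 6.72, 6.03 and 5.06 FPKM in the VEGFC-LNC set. Both log2 FCs of EGLN1 were within 0.02 of 0, with a standard error of 0.17. EGLN2 was at 20.3 and 22.7 FPKM against 19.7, 18.9 and 19.7 FPKM, and at 17.02 and 17.7 FPKM against 18.8, 18.5 and 20.1 FPKM. Its clones lay just below the VEGFA-LNC controls and just above the VEGFC-LNC controls, by log2 FCs of −0.15 and 0.14, and neither passed the test (FDR 0.508 and 0.489).

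Of the 14 tested genes of glucose uptake and glycolysis, 11 were lower and 3 higher upon VEGFC-LNC deletion (median log2 FC −0.32), and none was called. With the median of ratios 9 were lower and 5 higher and the median was −0.23. Over all tested genes 7870 of 13333 were lower upon VEGFC-LNC deletion. Upon VEGFA-LNC deletion 8 were lower and 6 higher, with a median of −0.05, or 7 and 7 after the other scaling, and PFKFB3 was the only call. This direction turned with single clones, being 10 lower and 4 higher (median −0.21) without the first VEGFA-LNC deletion clone and 6 lower and 8 higher (median 0.06) without the second. The lower genes upon VEGFC-LNC deletion included GPI, the isomerase, with a log2 FC of −0.40, the kinase PGK1 with −0.30 and the enolase ENO1 with −0.38. None of these passed the test, and all 3 VEGFC-LNC deletion clones of each lay below both controls. The glucose transporter SLC2A1 went the other way, with a log2 FC of 0.53 and clones at 12.0, 7.54 and 13.6 FPKM over controls at 7.40 and 7.40 FPKM (FDR 0.301). Clone by clone, the first VEGFC-LNC deletion clone had 7 of the 14 genes below both controls, the second had 12 and the third had 10. Of all 13333 tested genes, 6681, 7642 and 6487 lay below both controls in these clones.

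LDHA turns pyruvate into lactate, and is listed as NM_005566 on chromosome 11 from 18415936 to 18429765. The 4 control libraries were close together, at 341 and 343 FPKM in the VEGFA-LNC set and at 339 and 337 FPKM in the VEGFC-LNC set. The VEGFC-LNC deletion clones were at 231, 149 and 194 FPKM, and the VEGFA-LNC deletion clones at 356, 213 and 192 FPKM. So 5 of the 6 clones were below every control, and the first VEGFA-LNC deletion clone was above. The log2 FC was −0.84 upon VEGFC-LNC deletion (SE 0.27, FDR 0.178) and −0.49 upon VEGFA-LNC deletion (SE 0.27, FDR 0.372). Without the first VEGFA-LNC deletion clone these were −0.84 (FDR 0.0261) and −0.76 (FDR 0.0374), both past the test. The 6 transcripts listed for LDHA gave −0.85 to −0.84 upon VEGFC-LNC deletion.

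ENO2, the neuronal enolase, is listed as NM_001975 on chromosome 12 from 7023614 to 7032859. The VEGFC-LNC controls were at 8.09 and 6.91 FPKM and the deletion clones at 4.85, 4.40 and 3.57 FPKM. In the VEGFA-LNC set the controls were at 5.68 and 6.31 FPKM and the clones at 6.84, 6.66 and 6.16 FPKM. The VEGFC-LNC deletion clones were the lowest 3 libraries, and the VEGFA-LNC groups overlapped. The log2 FC of −0.80 (SE 0.17, FDR 0.0778) came with lower values of the genes around it. Within 5 Mb, 76 of 88 tested genes were lower upon VEGFC-LNC deletion (median log2 FC −0.59), while genes on other chromosomes had a median of −0.08. The part of this stretch in the value of ENO2 was not tested.

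PDK1, which holds pyruvate back from the mitochondria, was lower in all 3 clones of both deletions. It was at 1.79 and 1.91 FPKM in the VEGFA-LNC controls and at 0.884 to 1.32 FPKM in the clones (log2 FC −0.80, SE 0.26, FDR 0.146), and at 1.48 and 1.73 FPKM against 0.672 to 1.14 FPKM in the VEGFC-LNC set (log2 FC −0.73, SE 0.26, FDR 0.203). HK1 and HK2 are the hexokinases that start glycolysis. HK1 was at 98.6 and 98.2 FPKM in the VEGFA-LNC controls and at 69.9, 65.7 and 77.4 FPKM in the clones, below both controls (log2 FC −0.47, SE 0.12, FDR 0.0702), and at 63.4 and 61.2 FPKM against 64.9, 57.2 and 59.3 FPKM in the VEGFC-LNC set. As with PFKFB3, the 2 VEGFA-LNC controls stood above the other 8 libraries. HK2 was at 7.45 and 7.73 FPKM in the VEGFA-LNC controls and at 6.64, 2.5 and 3.72 FPKM in the clones (log2 FC −0.92, SE 0.39, FDR 0.236). The phosphofructokinases PFKL (0.26 and 0.06) and PFKP (0.05 and −0.02) had small log2 FCs in both deletions, and PFKFB4 had −0.10 and −0.39.

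**Figure D4:**
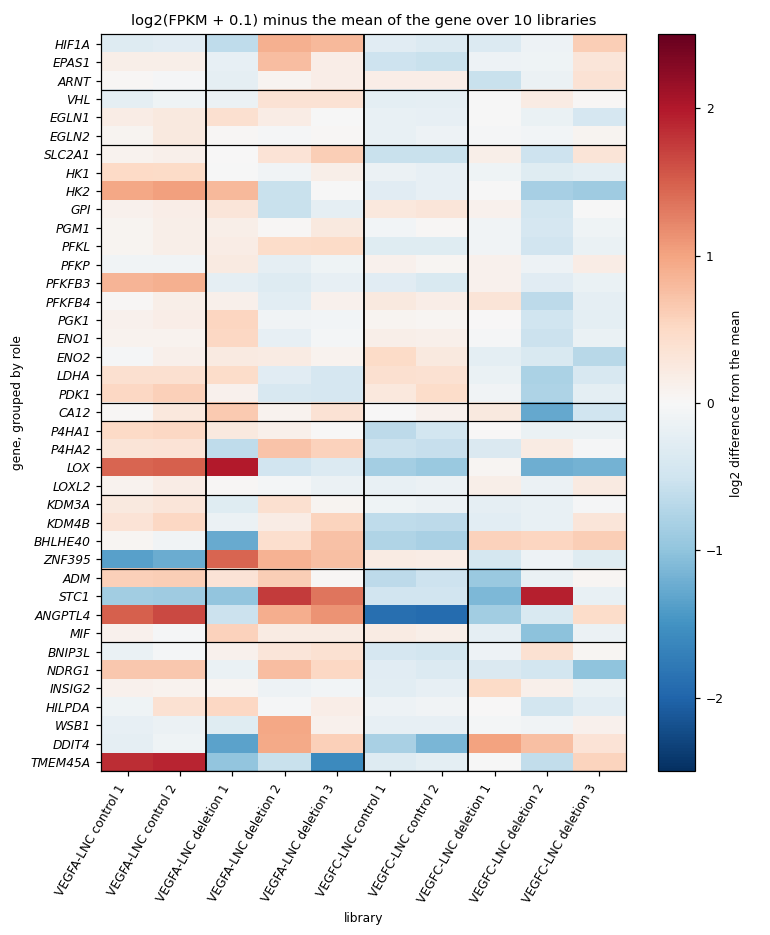
log2(FPKM + 0.1) of the 40 tested genes minus the gene's mean over 10 libraries; columns are libraries in 4 groups set apart by vertical lines, rows are genes grouped by role, and red is above the mean. The 2 controls of a set look alike, the first VEGFA-LNC deletion clone differs from the others at HIF1A, STC1, BHLHE40, DDIT4 and LOX, and most of the glycolysis genes are blue in the second VEGFC-LNC deletion clone.

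The 4 genes of collagen modification were all lower upon VEGFA-LNC deletion (median log2 FC −0.29) and all higher upon VEGFC-LNC deletion (0.36), also with the median of ratios, and none was called in either. Without the first VEGFA-LNC deletion clone P4HA2 was higher and the other 3 lower upon VEGFA-LNC deletion, and without the first VEGFC-LNC deletion clone 3 were higher and 1 lower upon VEGFC-LNC deletion. Against all 4 controls 3 of the 4 were higher upon VEGFA-LNC deletion, and 2 were higher and 2 lower upon VEGFC-LNC deletion. P4HA1, a subunit of collagen prolyl 4-hydroxylase listed as NM_001142596 on chromosome 10 from 74766980 to 74856732, was at 35.3 and 35.9 FPKM in the VEGFA-LNC controls. The VEGFA-LNC deletion clones were at 29.7, 27.4 and 25.0 FPKM, below both controls (log2 FC −0.38, SE 0.12, FDR 0.143). Lowest of all were the VEGFC-LNC controls, at 15.8 and 18.1 FPKM, and their clones were at 25.0, 22.3 and 22.6 FPKM, above them (0.46, SE 0.12, FDR 0.132). P4HA2, the other catalytic subunit, ran from 30.4 to 78.0 FPKM in the VEGFA-LNC deletion clones, on both sides of the controls, and was higher in all 3 VEGFC-LNC deletion clones than in both controls (log2 FC 0.50, SE 0.36, FDR 0.461).

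LOX, the lysyl oxidase that crosslinks collagen, is listed as NM_002317 on chromosome 5 from 121398890 to 121414196. It was at 43.0 and 44.4 FPKM in the VEGFA-LNC controls, and at 62.0, 11.2 and 12.3 FPKM in the clones. The VEGFC-LNC controls were at 8.59 and 8.15 FPKM and the clones at 16.2, 6.63 and 6.82 FPKM. In both sets the first clone was above the controls and the other two clones were the lowest of the set. The log2 FC was −1.09 upon VEGFA-LNC deletion (SE 0.69, FDR 0.428) and 0.11 upon VEGFC-LNC deletion (SE 0.69, FDR 0.943). LOXL2, a related oxidase, varied far less, between 37.6 and 50.4 FPKM over the 10 libraries, with log2 FCs of −0.20 and 0.25.

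Among the secreted factors ANGPTL4 and STC1 had the widest ranges. ANGPTL4, an inhibitor of lipoprotein lipase listed as NM_139314 on chromosome 19 from 8429011 to 8439259, was at 61.3 and 68.2 FPKM in the VEGFA-LNC controls and at 14.9, 41.2 and 47.3 FPKM in the clones. It was at 5.83 and 5.67 FPKM in the VEGFC-LNC controls and at 11.9, 16.6 and 29.8 FPKM in the clones. The clones of the VEGFA-LNC set were all below their controls and those of the VEGFC-LNC set all above, and the 6 clones lay between the 2 control pairs. The log2 FC was −1.07 (SE 0.50, FDR 0.279) upon VEGFA-LNC deletion and 1.63 (SE 0.50, FDR 0.161) upon VEGFC-LNC deletion, and against all 4 controls the latter was −0.10 (FDR 0.962). Of the 193 tested genes within 5 Mb of ANGPTL4, 150 were lower upon VEGFA-LNC deletion (median −0.30, against −0.05 on other chromosomes), and the part of this stretch in the value was not tested.

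STC1, a glycoprotein hormone of calcium and phosphate balance, is listed as NM_003155 on chromosome 8 from 23699434 to 23712320. The 4 controls were at 15.5, 15.4, 20.4 and 20.49 FPKM. The VEGFA-LNC deletion clones were at 14.4, 95.8 and 72.7 FPKM and the VEGFC-LNC deletion clones at 13.1, 110.1 and 25.3 FPKM. In both sets the first clone was just below its controls and the second far above, so the groups overlapped. The log2 FC was 1.58 (SE 0.94, FDR 0.397) upon VEGFA-LNC deletion and 0.70 (SE 0.94, FDR 0.698) upon VEGFC-LNC deletion, and without the first VEGFA-LNC deletion clone the former was 2.42 (FDR 0.0709).

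ADM, which encodes the vasodilator adrenomedullin, is listed as NM_001124 on chromosome 11 from 10326527 to 10328949. It was at 13.4 and 13.6 FPKM in the VEGFA-LNC controls and at 11.2, 13.5 and 9.04 FPKM in the clones, and at 5.59 and 6.11 FPKM in the VEGFC-LNC controls and at 4.59, 7.82 and 9.17 FPKM in the clones. Clones and controls of ADM overlapped in both sets, with log2 FCs of −0.28 and 0.24 (SE 0.28, FDR 0.635 and 0.652). MIF was lower in all 3 VEGFC-LNC deletion clones, at 71.0 to 129 FPKM against 159 and 167 FPKM (log2 FC −0.65, SE 0.25, FDR 0.231), and higher in all 3 VEGFA-LNC deletion clones (0.29, SE 0.25, FDR 0.575). CA12, the carbonic anhydrase that was detected, ranged from 0.974 to 3.99 FPKM and overlapped between clones and controls in both sets.

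Among the regulators of transcription, BHLHE40 differed most between the VEGFC-LNC groups. This clock-linked repressor is listed as NM_003670 on chromosome 3 from 5021097 to 5026865. The VEGFC-LNC controls were at 33.7 and 32.3 FPKM and the deletion clones at 84.2, 82.5 and 86.7 FPKM, so that the clones agreed closely with each other and lay above both controls. The VEGFA-LNC controls were at 58.9 and 53.1 FPKM and their clones at 23.6, 76.2 and 94.3 FPKM, on both sides of the controls. The log2 FC upon VEGFC-LNC deletion was 1.35 (SE 0.48, FDR 0.201). It was past the test with the 5 libraries of that comparison alone (FDR 0.0173) and without the first VEGFA-LNC deletion clone (FDR 0.00219), with the same log2 FC.

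KDM4B and KDM3A are histone demethylases that use oxygen and are known targets of HIF. KDM4B, listed as NM_015015 on chromosome 19 from 4969124 to 5153608, was at 8.56 and 9.66 FPKM in the VEGFA-LNC controls and at 6.08, 7.69 and 9.99 FPKM in the clones. In the VEGFC-LNC set it was at 4.29 and 4.28 FPKM in the controls and at 5.58, 5.94 and 8.35 FPKM in the clones, all above the controls (log2 FC 0.59, SE 0.24, FDR 0.238). KDM3A stayed within 10.6 to 17.3 FPKM, with log2 FCs of −0.21 and −0.03.

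DDIT4, the inhibitor of mTORC1 also called REDD1, is listed as NM_019058 on chromosome 10 from 74033677 to 74035794. The VEGFC-LNC controls were at 3.93 and 3.08 FPKM and the clones at 13.9, 11.7 and 8.76 FPKM, all above the controls. The VEGFA-LNC controls were at 5.87 and 6.45 FPKM and the clones at 2.66, 13.5 and 10.5 FPKM, with the first clone below and the others above. Upon VEGFC-LNC deletion the log2 FC was 1.67 (SE 0.57, FDR 0.195), the largest of the list in that comparison, and it was past the test without the first VEGFA-LNC deletion clone (FDR 0.00914).

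Among the remaining targets, BNIP3L, a receptor for the removal of mitochondria, was the only tested gene of the list that stood above the controls in all 3 clones of both deletions, with log2 FCs of 0.37 (FDR 0.248) and 0.54 (FDR 0.159). NDRG1, a stress-responsive gene, was at 45.2 and 45.0 FPKM in the VEGFA-LNC controls, at 25.0 to 48.0 FPKM in their clones, and at 13.98 to 23.1 FPKM in the 5 libraries of the VEGFC-LNC set. INSIG2, of sterol regulation, had log2 FCs of −0.14 and 0.38, HILPDA, of lipid droplets, 0.09 and −0.14, and the ubiquitin ligase subunit WSB1 0.43 and 0.19. None of these 5 was called in either deletion.

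**Figure D5:**
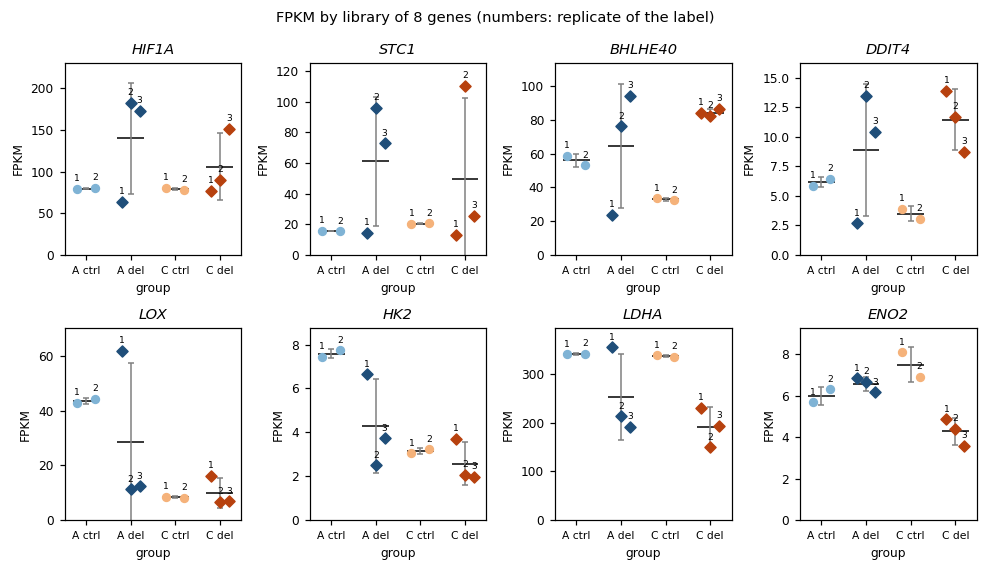
FPKM by library of 8 genes, with groups, lines and bars as in the plot of called genes and digits giving the replicate number of the label. HIF1A, STC1, BHLHE40 and DDIT4 are lowest, and LOX, HK2 and LDHA highest, in the first VEGFA-LNC deletion clone among the clones of that set.

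The 2 control sets differed from each other at more of these genes than either deletion did from its controls. Against the VEGFA-LNC controls, the VEGFC-LNC controls had less ANGPTL4, TMEM45A, PFKFB3, ADM, KDM4B, P4HA1 and HK1 and more ZNF395. These 8 of the 40 genes are 20%, where 12.7% of all tested genes were called (389 higher and 1301 lower). With the median of ratios 6 of the 40 were called, without ADM and HK1, and 1493 of all tested genes. Of all calls 39.3% were then higher in place of 23.0%. That scaling moved the median of all genes from −0.11 to −0.00. The list's median log2 difference was −0.32, with 9 genes higher and 31 lower, or −0.21 with 15 higher and 25 lower after the other scaling. The control pairs did not overlap in 36 of the 40 genes (90%), and in 82.9% of all tested genes, so that non-overlap says little with 2 libraries against 2.

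ANGPTL4 fell by 3.47 on the log2 scale from the VEGFA-LNC controls to the VEGFC-LNC controls (SE 0.55, FDR 0.00878), 11.1-fold, the largest difference of the list. TMEM45A fell by 2.16 (SE 0.41, FDR 0.0149), PFKFB3 by 1.2 (SE 0.16, FDR 0.00562) and ADM by 1.19 (SE 0.31, FDR 0.0373). The decrease was 1.07 for KDM4B (SE 0.26, FDR 0.0321), 1.07 for P4HA1 (SE 0.14, FDR 0.00503) and 0.66 for HK1 (SE 0.13, FDR 0.0168). ZNF395 rose by 1.48 (SE 0.26, FDR 0.0122). LOX was lower by 2.37 (FDR 0.0698) and HK2 by 1.25 (FDR 0.0874), past neither threshold. In contrast, HIF1A (−0.01), LDHA (−0.02), ENO1 (0.05) and PGK1 (−0.08) were nearly level between the control sets, with standard errors of 0.49, 0.30, 0.27 and 0.23. Without the first VEGFA-LNC deletion clone 15 of the list were called, and 3066 of all tested genes in place of 1690. A set left with 1 control gives no spread of its own, so calls there are not comparable. With a library left out the log2 difference ran from −3.55 to −3.39 for ANGPTL4, −2.21 to −2.11 for TMEM45A and −1.26 to −1.15 for PFKFB3. It ran from −1.26 to −1.13 for ADM, −1.15 to −0.98 for KDM4B and −1.17 to −0.98 for P4HA1. HK1 ran from −0.69 to −0.63 and ZNF395 from 1.42 to 1.54. The labels name no batch, and a batch that followed the sets could not be told apart from them.

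The effects of the 2 deletions differed for PFKFB3, TMEM45A and ZNF395, tested as the effect of VEGFC-LNC deletion minus that of VEGFA-LNC deletion. The difference was 1.34 on the log2 scale for PFKFB3 (SE 0.21, FDR 0.0233), 3.19 for TMEM45A (SE 0.53, FDR 0.0276) and −2.79 for ZNF395 (SE 0.34, FDR 0.0102). They are 7.5% of the 40 genes, with 1.46% of all tested genes called. Same-numbered clones of the 2 deletions deviated together, but so did clones 2 and 3 of different number (r = 0.263 and 0.183). This comparison was also fitted with the replicate number as a replicate block, though a pairing of numbers 2 and 3 is not established. The fit with the block called 1 gene of the list, ZNF395, in place of 3, and 86 of all tested genes in place of 194. The FDR of PFKFB3 was then 0.0513 and that of TMEM45A 0.0677. P4HA1 came close to the threshold at 0.84 (SE 0.18, FDR 0.0597), and was called with the median of ratios and with no filter on low values, and ANGPTL4 had 2.71 (SE 0.71, FDR 0.10). This difference, the comparison of the control sets and each deletion's own comparison share control libraries and are not independent. For PFKFB3 and TMEM45A the libraries that stood apart were the 2 VEGFA-LNC controls, which enter 3 of the 4 comparisons. Against all 4 controls the controls cancel, which leaves the VEGFC-LNC deletion clones against the VEGFA-LNC deletion clones. That comparison called 0 genes of the list and 291 of all tested genes, and 8 genes of the list were higher and 32 lower (median −0.27). With a library left out the difference of the effects ran from 1.23 to 1.42 for PFKFB3. It ran from 2.90 to 3.48 for TMEM45A and from −2.93 to −2.58 for ZNF395. Without the first VEGFA-LNC deletion clone it was called for 6, and for 692 of all tested genes in place of 194. Without the first VEGFC-LNC deletion clone it was called for 2, PFKFB3 and ZNF395, and for 165 of all tested genes.

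Other genes of hypoxia signaling and carbon metabolism were taken from a second list of 41, of which 37 were tested. Upon VEGFA-LNC deletion 2 were called, HMOX1 and MXI1, while 10 were higher and 27 lower. Upon VEGFC-LNC deletion limma called 0, with 12 higher and 25 lower, and limma voom also called 0. At an unadjusted p under 0.05 in limma there were 12 of the 37, and 2508 of all 13333 tested genes. HMOX1, the heme oxygenase, was at 140.2 and 146 FPKM in the VEGFA-LNC controls and at 13.8, 49.7 and 33.5 FPKM in the clones, a fall of 2.33 (SE 0.43, FDR 0.0313). It was at 11.4 and 11.9 FPKM in the VEGFC-LNC controls and at 65.8, 56.3 and 75.9 FPKM in the clones (log2 FC 2.48, SE 0.43, FDR 0.0537). In HMOX1, as in ANGPTL4 and P4HA1, the 6 clones lay between the high VEGFA-LNC controls and the low VEGFC-LNC controls. Without the first VEGFA-LNC deletion clone 8 and 7 of the second list were called upon VEGFA-LNC and VEGFC-LNC deletion. Of all tested genes 1732 and 1157 were then called.

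VEGFA, the target gene of the studied region and of HIF, was at 10.2 and 9.62 FPKM in the VEGFA-LNC controls and at 4.68, 4.71 and 7.35 FPKM in the clones (log2 FC −0.85, SE 0.27, FDR 0.13). It was at 3.23 and 3.84 FPKM in the VEGFC-LNC controls and at 8.85, 7.83 and 5.25 FPKM in the clones (log2 FC 1.00, SE 0.27, FDR 0.127). As in HMOX1, the 6 clones lay between the 2 control pairs. MXI1, an antagonist of MYC, rose by 1.59 (SE 0.27, FDR 0.024) in the VEGFA-LNC deletion clones, and 21 of the 22 tested genes within 5 Mb of it were higher there (median log2 FC 0.53). GAPDH was at 2195 and 2129 FPKM in the VEGFC-LNC controls and at 779, 890 and 1420 FPKM in the deletion clones (log2 FC −1.12, SE 0.29, FDR 0.123), and TPI1 had −1.07 (SE 0.24, FDR 0.0944). Both lie near ENO2 on chromosome 12, and 77 of the 90 tested genes within 5 Mb of GAPDH were lower in those clones. GAPDH and TPI1 have processed copies too. ANKRD37, a HIF-1 target, had −1.38 (SE 0.60, FDR 0.262) upon VEGFC-LNC deletion on 1 to 40 reads a library. HIF3A did not reach the filter, with 1.24 FPKM in the second VEGFA-LNC deletion clone and 0.428 FPKM or less in the other libraries. Between the control sets ARNT2, HMOX1 and VEGFA were called, all lower in the VEGFC-LNC controls. VLDLR, PDK4 and ERO1L were not tested either.

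Markers of cell division differed between the groups as well. The summed level of 8 proliferation markers, from MKI67 to MCM2, was 448 to 462 FPKM in the VEGFC-LNC controls and 138 to 338 FPKM in the deletion clones, and all 8 markers were lower there (median log2 FC −1.81), none past the test. In the VEGFA-LNC set this sum was 251 to 264 FPKM in the controls and 181 to 486 FPKM in the clones. Upon VEGFA-LNC deletion 7 of the 8 markers were lower and 1 higher (median log2 FC −0.77), again with none past the test. MKI67, the marker of cycling cells, was at 8.35 and 7.65 FPKM in the VEGFA-LNC controls and at 21.1, 1.33 and 2.78 FPKM in the clones, so that the first clone was high and the others low. The same clone was the highest of the 3 VEGFA-LNC deletion clones for LDHA, LOX and HK2 and the lowest of them for HIF1A, STC1, BHLHE40 and DDIT4. The part of proliferation in these values was not tested. Sums of 5 epithelial markers, nearly all KRT8 and KRT18, were 651 to 658 FPKM in the VEGFC-LNC controls and 197 to 364 FPKM in their clones, and 565 to 573 FPKM against 254 to 784 FPKM in the VEGFA-LNC set. The 9 endothelial markers summed to 468 to 1231 FPKM over the libraries. Fibroblast markers, with COL1A2 and DCN at 0.0140 FPKM or less, summed to at most 0.566 FPKM. Leukocyte markers summed to 17.5 to 54.0 FPKM, nearly all of it CD68, and PTPRC was at 0.123 FPKM or less.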

How the data were processed

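The 10 RNA-Seq libraries of EA.hy926 cells (groups of 3, 2, 3 and 2) were analysed from 1 table of RefSeq transcripts on hg19. In it the authors deposited FPKM values per library, after trimming with Trim Galore 0.4.4, alignment with STAR 2.5.4b and, per the labels, featureCounts; the program that wrote the FPKM table, its handling of reads with several matches and its strand setting are not given in the sources used here, so genes that overlap or have near-identical copies are uncertain. Of 65572 rows, 42 without a symbol were dropped and the row with the highest mean FPKM was kept for each of 27945 symbols. Every checked low value was a whole number of reads within 0.1 read, which gave depths of 14874206 to 18442008 reads (VEGFA-LNC deletion), 17388209 to 22578338 (their controls), 6743947 to 22411287 (VEGFC-LNC deletion) and 9493551 to 24197589 (their controls). The recovered reads served for depth, for limits of a count of 0 and for 1 alternative test.

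Genes with FPKM times length in kb of at least 1 in at least 2 libraries were tested in limma 3.58.1 (R 4.3.3) on log2(FPKM + 0.1), with a mean-variance trend, all 4 groups in 1 fit (6 residual degrees of freedom) and Benjamini-Hochberg adjustment over 13333 genes. The fit was tested on simulated data. Compared were the clones of a deletion with the controls of their set, the 2 control sets, and the difference between the 2 deletion effects. Tables and plots were made with Python 3.11.15, pandas 2.3.3 and matplotlib 3.10.9. Members, roles, marker lists and the second list were chosen with earlier results of these data known, and 1 gene of the second list is not reported here. Values in every library are given for the genes called in any comparison, the 5 with the largest change in each deletion, the HIF subunits and the sensors, and other genes are examples of their role. Per-library values of HK2 and SLC2A1, and TPI1 of the second list, were added after values were seen.

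Alternatives were other filters, a pseudocount of 1, scaling by the median of ratios, the longest transcript, limma voom on recovered reads, all 4 controls, averaged control pairs, fits of 5 libraries, a replicate block, and each library left out. Across genes, deviations from the group means correlated at r = 0.553, 0.409 and 0.219 for same-numbered deletion clones of the 2 sets. VEGFA-LNC deletion clone 2 also correlated with VEGFC-LNC deletion clone 3 (r = 0.263), and VEGFA-LNC deletion clone 3 with VEGFC-LNC deletion clone 2 (r = 0.183). Pairs of a clone 1 with a clone of another number were at r = −0.540 to −0.300. These values set clone 1 apart in both sets and do not show that numbers 2 and 3 pair. Replicate numbers did not pair clones with controls (r between −0.0550 and 0.0473).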

Additional observations from a re-analysis of the deposited data

Results flagged for a closer look

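A group of 4 genes had effects that differed between the 2 deletions by the test of the difference itself (limma, the effect of VEGFC-LNC deletion minus that of VEGFA-LNC deletion, on the log2 scale). The difference was 1.34 for PFKFB3 (FDR 0.0233), 3.19 for TMEM45A (FDR 0.0276) and −2.79 for ZNF395 (FDR 0.0102), with VEGFC-LNC effects of 0.22, 0.27 and −0.48 that did not pass the test on their own. In the second list the difference was 4.81 for HMOX1 (FDR 0.012), where all 3 clones lay below both controls upon VEGFA-LNC deletion and above both controls upon VEGFC-LNC deletion. With the replicate block, which pairs same-numbered clones of the 2 deletions, ZNF395 and HMOX1 (FDR 0.0365) stayed past the test, and PFKFB3 (FDR 0.0513) and TMEM45A (FDR 0.0677) did not. All of these differences include the difference between the 2 control sets, which was past the test for each of the 4 genes.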

How the results depend on the processing

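Calls depended more on which controls entered and on how the spread was estimated than on units or filters. Averaging control pairs and fitting 5 libraries kept the list's median log2 FC at −0.02 (VEGFA-LNC deletion) and 0.08 (VEGFC-LNC deletion). Genes of the list called upon VEGFA-LNC deletion (3 as reported) were 0 against all 4 controls, 0 with control pairs averaged and 0 in the fit of 5 libraries, and those called upon VEGFC-LNC deletion (0) were 1 in the fit of 5 libraries. Against all 4 controls the controls cancel in the difference of the deletion effects, which leaves clones against clones. There 0 of the list and 291 of all tested genes were called. Between the control sets (8) ADM and HK1 lost their call with the median of ratios, and for the difference of the deletion effects (3) there was 1 with the replicate block. With a single library left out at a time these counts ran from 0 to 10, 0 to 5, 0 to 15 and 0 to 6, in that order, the highest always without the first VEGFA-LNC deletion clone.

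Of all tested genes, 367 were called upon VEGFA-LNC deletion, 654 with no filter, 551 by limma voom, 29 against all 4 controls, 0 with pairs averaged and 19 with 5 libraries (0 to 1732 with a library left out). Upon VEGFC-LNC deletion 63 were called, 1 with pairs averaged and 26 with 5 libraries (5 to 1157 with a library left out). Between the control sets it was 1690, and 0 with pairs averaged (29 to 3066 with a library left out). For the difference it was 194, 329 with no filter and 0 with pairs averaged (5 to 692 with a library left out). Of the second list, 2 were called upon VEGFA-LNC deletion, 1 against all 4 controls and 0 with pairs averaged or 5 libraries (0 to 8 with a library left out). Upon VEGFC-LNC deletion 0 were called, and 1 with the median of ratios or 5 libraries (0 to 7 with a library left out). The averaged fits leave 1 control a set, which is then assumed to vary like the clones.

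Clones and controls shared only a number. With that number as a replicate block, 151 genes were called upon VEGFA-LNC deletion and 20 upon VEGFC-LNC deletion in all, 86 for the difference, 1 and 0 of the second list, and between the control sets LOX was added to the 8 genes of the list.

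Among single genes, ANGPTL4 upon VEGFC-LNC deletion (1.63) reversed to −0.10, and LOX upon VEGFA-LNC deletion (−1.09) to 0.10, both against all 4 controls. The cause was not tested. Of 191 other values of the 21 gene results, 161 kept direction and side of the threshold, 27 lost their call and 1 gained it, and with a library left out 154 of 210 kept both. Few or no reads limit CA9, EGLN3, ALDOC and AK4, and 13 to 226 reads lie behind TMEM45A.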
